A study of Oryza sativa with 4 samples.

Results

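The basic helix-loop-helix (bHLH) transcription factor genes of rice were taken as every locus whose deposited symbol is bhlh followed by a number, which gave 161 of 57995 loci. They carry 159 different symbols, since bhlh68 and bhlh166 each stand on a pair of loci, which are told apart below by locus name. Leaves of 7-day-old seedlings of the genotype Dongjin, grown in 16 h of light and 8 h of dark at 23 °C, were compared. Irrigation was with 5 mM CysNO (S-nitrosocysteine, a small thiol compound that donates nitric oxide) or, in control, with a buffer of 1 mM HCl. Each group had 2 libraries. The HCl content of the CysNO solution is not recorded, so a difference in solvent cannot be told apart from the treatment. Sequencing of poly(A) RNA read 100 bp from both ends of each fragment. Levels are in FPKM, the fragments of a gene scaled to its transcript length and to all mapped fragments, so that different genes can be set side by side. The labels name no cysteine control and do not give the time between irrigation and harvest, nor whether replicate libraries stem from different plants. P-values therefore measure only the spread between these libraries, which may be technical, and effects of nitric oxide and of the cysteine part of CysNO cannot be told apart. In RNA from whole leaves, a change in the share of a cell type and a change in RNA per cell cannot be told apart either.

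Proteins of the bHLH family hold a basic region that contacts DNA and a helix-loop-helix region through which they pair with each other, and they mostly bind short DNA elements called E-boxes. In plants the family reaches into many processes. MYC2 carries the jasmonate signal and is held back by JAZ proteins until the hormone has them degraded. Phytochrome-interacting factors are bound by light-activated phytochromes and drive elongation growth in the dark or in shade. In grasses another set of bHLH proteins switches on the synthesis of the iron chelators that roots secrete when iron runs short. The numbers in the symbols follow the rice bHLH nomenclature, and the functional names used beside them mostly rest on general knowledge of that nomenclature. For 11 members the number is also a name on the same chromosome in the RefSeq gene table used. That table gives a functional name for only part of these.

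The leaf label was checked against 5 loci of Rubisco, its activase and light-harvesting proteins, which summed to 2156 and 3250 FPKM after CysNO and to 4628 and 3402 FPKM in control. None of these 5 passed the test between groups (limma; 1 had an unadjusted p under 0.05). Loci of root marker genes, 4 in all, summed to 17.0 FPKM in CysNO 1 and 129 FPKM in CysNO 2, against 15.8 and 21.2 FPKM in control. CysNO 2 stood apart in this sum, mostly through LOC_Os02g44310 (taken as the root gene RCc3), which had 4.47 and 96.4 FPKM after CysNO and 1.64 and 4.39 FPKM in control. The meristem gene OSH1 had 2.59 and 1.17 FPKM after CysNO and 3.48 and 6.68 FPKM in control. Read counts are not in the files, so depth is unknown. An estimate from low loci, which assumes equal fragment counts and no other scaling, put the relative depth at 0.825 for CysNO 1 and 1.08 for CysNO 2. Control 2 was at 1.07 with control 1 set to 1.

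Most of the family was low but detected. Of the 161 members, 4 averaged at least 100 FPKM over the 4 libraries, 44 averaged 10 to 100, 69 averaged 1 to 10 and 27 lay under 1 FPKM without being at 0 throughout. The remaining 17 were listed at 0 in all libraries, which is 10.6% of the members against 46.9% of all loci. A listed 0 can be a failed estimate and is no proof of absence. Levels were steeply graded. The 3 most abundant members of each library held 38.5% and 35.9% of the family's summed FPKM after CysNO, against 23.5% and 25.7% in control. That sum came to 2849 and 2923 FPKM after CysNO and to 2543 and 2110 FPKM in control, so both CysNO libraries were above both controls. The sum is weighted to the most abundant members and does not describe the family member by member. The median log2 difference (CysNO minus control) over the members tested between groups was -0.01.

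**Figure D1:**
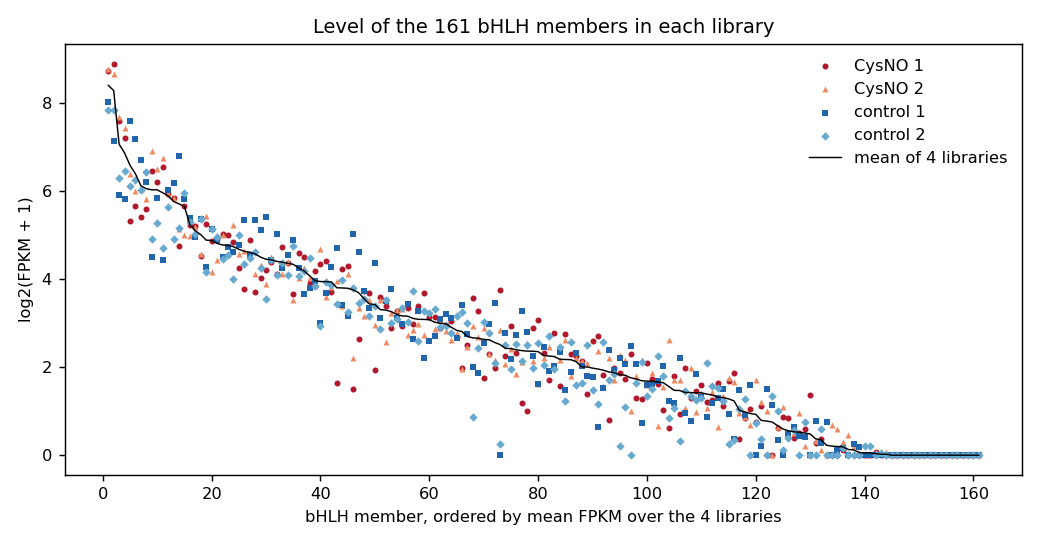
Each of the 161 bHLH members along the horizontal axis, ordered by its mean FPKM, with its level in CysNO 1, CysNO 2, control 1 and control 2 as log2(FPKM + 1) on the vertical axis and the 4-library mean as a line. The most abundant members, bhlh148 and bhlh6, reach at least 402 FPKM in both CysNO libraries, 17 are at 0 in every library, and the CysNO and control points overlap for 62 of the 121 members tested between groups.

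At the top of the list stood bhlh148 and bhlh6 (RERJ1), followed by bhlh9 (MYC2) and bhlh58 (PRI2). All 4 had higher values in both CysNO libraries than in either control, although only bhlh9 passed the test. In control 1 the ranks 2, 3 and 4 were held instead by bhlh56 (IRO2), bhlh33 and bhlh6. Next in mean level came bhlh56, bhlh33, bhlh63 (IRO3) and bhlh144, and these 4 averaged less after CysNO than in control without passing. The list of the 12 most abundant members closed with bhlh31, bhlh109, bhlh10 and bhlh60 (PRI1). bhlh31 and bhlh10 owed their place to the CysNO libraries, where they held ranks 5 and 6 in the family, while their ranks in control lay between 19 and 35. bhlh33 had 49.9 and 63.3 FPKM after CysNO and 144 and 75.9 FPKM in control, a log2 difference of -0.88 ± 0.36 (SE; limma, adjusted p = 0.25). bhlh144 had 47.2 and 55.6 FPKM after CysNO and 73.5 and 86.2 FPKM in control (limma, adjusted p = 0.269). bhlh109 had 73.3 and 90.4 FPKM after CysNO and 56.5 and 37.8 FPKM in control (limma, adjusted p = 0.211), and its locus overlaps LOC_Os01g67490 on the other strand.

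The comparison asks which of these genes differ in leaf RNA after the nitric oxide donor. A locus was tested if 2 or more of the 4 libraries had 1 FPKM or more, which left 21123 loci with 121 members among them. The test was limma on log2(FPKM + 1), a scale that understates the change of low genes, with Benjamini-Hochberg adjustment over all 21123 loci and a threshold of 0.05. Of the 121 tested members, 6 rose and 3 fell, where 3.27% of all tested loci rose and 0.956% fell, or 4.23% in either direction. bhlh9, bhlh10, bhlh31, bhlh36, bhlh50 and the bhlh68 of LOC_Os04g53990 rose, and bhlh44, bhlh102 and bhlh104 fell. The 2 groups did not overlap at 33 members that were higher after CysNO and at 26 that were lower, which is 27.3% and 21.5% of the tested members, beside 21.5% and 24.9% of all tested loci. The median log2 difference was -0.01 over the tested members, with quartiles of -0.47 and 0.40, and -0.01 over all tested loci, with quartiles of -0.33 and 0.30. Members with an absolute log2 difference of at least 1 made up 19.0% of those tested, against 11.98% of all tested loci. No test of these differences between the family and the other loci was made.

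**Figure D2:**
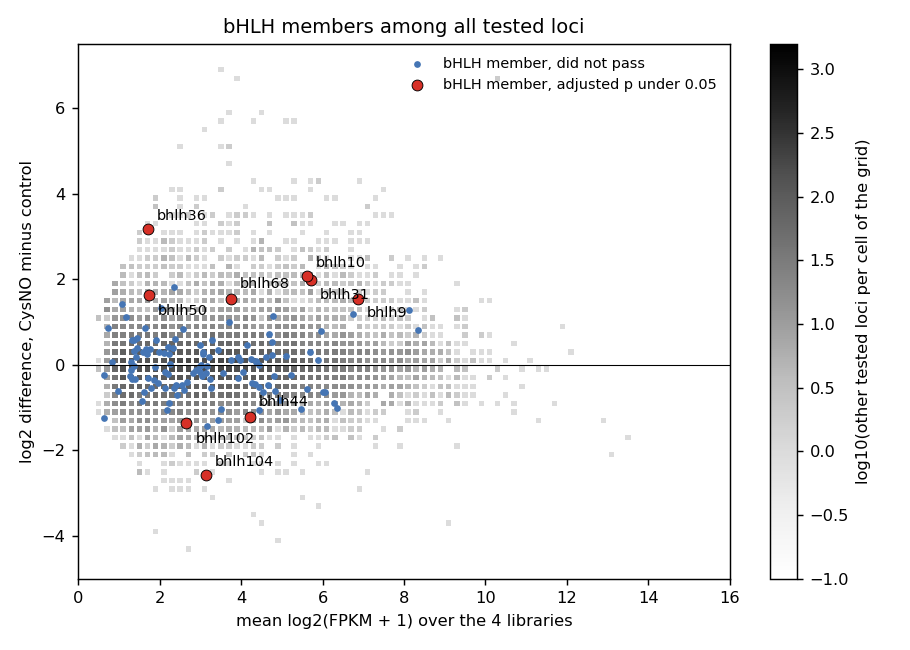
Log2 difference (CysNO minus control) on the vertical axis against the mean log2(FPKM + 1) of the 4 libraries on the horizontal axis. Grey cells count the other tested loci, blue points are the 112 tested members that did not pass and red points the 9 that did, of which 6 lie above the line of no difference and 3 below it.

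Of the 9, only bhlh10 and bhlh36 also passed with both quantile normalization and median centring (bhlh36 met the filter on low values through its CysNO libraries alone), where 1.78% of all tested loci did so as higher and 0.308% as lower. Quantile normalization left 3 higher members and 1 lower one, and median centring left 2 and 0. Without control 1, bhlh10, bhlh31, bhlh36 and bhlh104 still passed, and without control 2 all but bhlh44 and bhlh102 did. Without CysNO 1 or without CysNO 2 none of the 9 passed, with adjusted p from 0.196 to 0.377, and of all 21123 loci 0 and 1 did by limma, with 2323 and 3209 at an unadjusted p under 0.05. All 9 kept their direction with each library left out, which was fixed in advance because their groups do not overlap. A lone library has no spread of its own, and these fits take it from the other group.

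**Figure D3:**
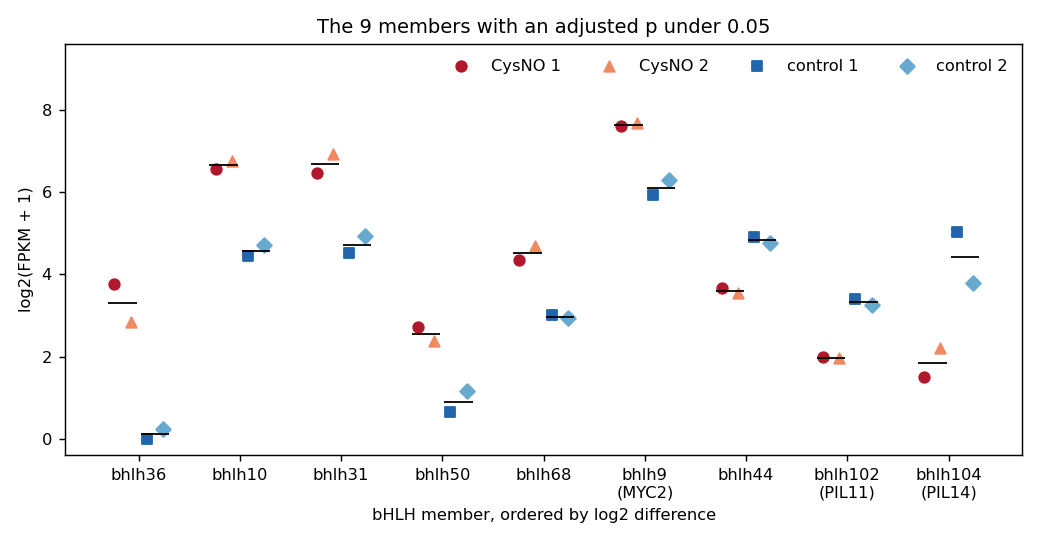
Level as log2(FPKM + 1) in each library for the 9 members that passed, ordered from the largest positive to the largest negative log2 difference, with black lines at the mean of the 2 log values of each group. The groups do not overlap for any of the 9, and the controls of bhlh104 lie furthest apart among the members that fell.

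Of the 4 members of the jasmonate and defence list, bhlh9 rose and the other 3 did not pass. bhlh9 encodes MYC2, the central activator of jasmonate responses (LOC_Os10g42430, chromosome 10, bases 22785596 to 22788359, plus strand). It stood at 192 and 204 FPKM after CysNO and at 59.6 and 77.3 FPKM in control, so both treated libraries were well above both controls. The means were 198 ± 8.47 FPKM after CysNO and 68.4 ± 12.5 FPKM in control (SD, n = 2 each), a log2 difference of 1.53 ± 0.28 (SE; limma, adjusted p = 0.0297). With quantile normalization its adjusted p was 0.0788, with median centring 0.0701 and without control 1 0.116, each by limma. MYC2 held rank 3 in the family in both CysNO libraries and ranks 10 and 5 in the controls.

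RERJ1, encoded by bhlh6, is a jasmonate-induced factor of the wound response. bhlh6 had 478 and 402 FPKM after CysNO and 140.0 and 228 FPKM in control, a log2 difference of 1.29 ± 0.35 (SE; limma, adjusted p = 0.0968). bhlh148, whose product binds JAZ proteins and is known from drought tolerance, had 425 and 441 FPKM after CysNO and 261 and 228 FPKM in control, a log2 difference of 0.83 ± 0.30 (SE; limma, adjusted p = 0.208). Both genes had non-overlapping groups without passing. The locus of bhlh148 overlaps LOC_Os03g53024 on the other strand, and no source used here says whether the authors' counting used strand. bhlh25 (DPF) encodes an activator of diterpenoid phytoalexin genes, and it varied within both groups, with 11.9 and 5.66 FPKM after CysNO and 3.65 and 8.75 FPKM in control (limma, adjusted p = 0.712). Over the 4 members, a list chosen with earlier results known, the median log2 difference was 1.06. bhlh3 (RAI1, of rice immunity) and bhlh62, whose product interacts with JAZ9, are not on this list. Their log2 differences were -0.04 and 1.34, and neither passed. Of 13 JAZ loci, whose proteins repress MYC2, 5 rose and 0 fell, where 3.27% of all tested loci rose and 0.956% fell. The median log2 difference of the JAZ loci was 1.42, beside -0.01 over all tested loci. Their calls with the other scalings are not given here. LOC_Os10g25290 (JAZ12), the most abundant of the 5 after CysNO by mean, had 862 and 793 FPKM after CysNO and 116 and 255 FPKM in control (limma, adjusted p = 0.0329).

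Away from jasmonate, the 5 other members that rose had less well known roles. bhlh10 (LOC_Os01g50940, chromosome 1, bases 29270113 to 29272225, plus strand) had 92.6 and 108 FPKM after CysNO and 20.8 and 25.2 FPKM in control. Its replicates were close in both groups, and the log2 difference was 2.08 ± 0.26 (SE; limma, adjusted p = 0.00903). bhlh31 (LOC_Os08g38210, chromosome 8, bases 24219692 to 24226032, plus strand) had 87.0 and 120.0 FPKM after CysNO and 21.8 and 29.3 FPKM in control, a log2 difference of 1.97 ± 0.29 (SE; limma, adjusted p = 0.0153). bhlh31 missed the threshold with quantile normalization (limma, adjusted p = 0.0523) and with median centring (0.0551).

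bhlh68 (LOC_Os04g53990, chromosome 4, bases 31981617 to 31984497, plus strand) is known from work on salt stress. It had 19.3 and 24.7 FPKM after CysNO and 7.08 and 6.62 FPKM in control, a log2 difference of 1.54 ± 0.27 (SE; limma, adjusted p = 0.0268). The other locus with that symbol, LOC_Os01g57580, had 7.35 and 5.15 FPKM after CysNO and 7.74 and 5.85 FPKM in control, with a log2 difference of -0.11 (limma, adjusted p = 0.917). Its groups overlapped, and no source used here says whether the loci share reads. bhlh68 on chromosome 4 passed with quantile normalization (limma, adjusted p = 0.0486) and missed the threshold with median centring (0.0543) and without control 1 (0.0548).

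The remaining members that rose, bhlh36 and bhlh50, were low in control. Both reached 1 FPKM in 2 libraries only through the CysNO group, so the filter itself selects such members for a difference. bhlh36 (LOC_Os05g07120, chromosome 5, bases 3756453 to 3759766, plus strand) had 12.5 and 6.14 FPKM after CysNO, while it was listed at 0 in control 1 and at 0.185 FPKM in control 2. Its log2 difference of 3.18 ± 0.39 (SE; limma, adjusted p = 0.00803) depends on the pseudocount of 1. The difference was 3.05 without control 1, the library at 0. Control 2 also lies below the pseudocount, so that value depends on it as well. bhlh50 (LOC_Os04g50090, chromosome 4, bases 29692760 to 29696165, plus strand) had 5.55 and 4.196 FPKM after CysNO and 0.56 and 1.25 FPKM in control, a log2 difference of 1.64 ± 0.34 (SE; limma, adjusted p = 0.0427). Without control 1 it was 1.38 (limma, adjusted p = 0.122), and bhlh50 also missed the threshold with quantile normalization (0.0653) and median centring (0.0782).

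Of the 6 phytochrome-interacting-factor-like (PIL) members, bhlh104 and bhlh102 fell, 0 rose and 4 did not pass. Over all tested loci 0.956% fell and 3.27% rose. bhlh104 (PIL14; LOC_Os07g05010, chromosome 7, bases 2206089 to 2209742, plus strand) had 1.83 and 3.60 FPKM after CysNO and 31.9 and 12.9 FPKM in control. Both treated libraries lay under both controls, and the controls themselves differed more than the treated libraries on the FPKM scale. The log2 difference was -2.57 ± 0.46 (SE; limma, adjusted p = 0.0279), with -1.95 without control 1 and -3.19 without control 2. bhlh104 missed the threshold with quantile normalization (limma, adjusted p = 0.0627) and median centring (0.0688).

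bhlh102 (PIL11; LOC_Os12g41650, chromosome 12, bases 25735202 to 25739522, plus strand) had 2.97 and 2.88 FPKM after CysNO and 9.63 and 8.59 FPKM in control. Here the replicates of each group were close, and the log2 difference was -1.36 ± 0.28 (SE; limma, adjusted p = 0.0431). It missed the threshold narrowly with quantile normalization (limma, adjusted p = 0.0506) and median centring (0.0526), and also without control 1 (0.135) and without control 2 (0.066).

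The remaining PIL members were lower in part. bhlh103 (PIL12) had 2.82 and 6.82 FPKM after CysNO and 19.7 and 9.57 FPKM in control (log2 difference -1.44 ± 0.46, SE; limma, adjusted p = 0.149). bhlh152 (PIL13, whose product promotes internode elongation) had 5.20 and 9.25 FPKM after CysNO and 23.4 and 10.004 FPKM in control (log2 difference -1.04 ± 0.44, SE; limma, adjusted p = 0.272). In both genes the groups did not overlap, and control 2 lay nearer to CysNO 2 than to control 1. bhlh105 (PIL15) went the other way without passing, with 27.9 and 36.6 FPKM after CysNO and 23.6 and 15.0 FPKM in control (log2 difference 0.73 ± 0.31, SE; limma, adjusted p = 0.272). bhlh119 (LF, a factor that delays flowering when overexpressed) had 3.41 and 3.44 FPKM after CysNO and 3.09 and 2.13 FPKM in control (limma, adjusted p = 0.714). The median log2 difference of the 6 was -1.20. Control 1 was above control 2 in 6 of 6 and CysNO 2 above CysNO 1 in 5 of 6, and the part of this library pattern in the result was not tested.

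The files put the symbol bhlh106 on LOC_Os05g04770, which had 1.07 and 0.609 FPKM after CysNO and 2.03 and 0 FPKM in control (limma, adjusted p = 0.973). In the RefSeq gene table (rice assembly ASM3414082v1) OsbHLH106, also called APG, a negative regulator of grain length, spans 2042 bp on chromosome 5. The span of LOC_Os05g04770 is 1184 bp, whereas that of LOC_Os05g04740, a locus close by with no symbol that is usually given as PIL16, is 2044 bp. LOC_Os05g04740 had 10.5 and 12.4 FPKM after CysNO and 30.04 and 19.3 FPKM in control, groups that did not overlap (log2 difference -1.02 ± 0.30, SE; limma, adjusted p = 0.126). None of the phytochrome genes PHYA, PHYB and PHYC passed (limma; 0 at an unadjusted p under 0.05), and their summed level was 26.1 and 25.1 FPKM after CysNO and 33.3 and 26.9 FPKM in control.

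bhlh44 (LOC_Os03g08930, chromosome 3, bases 4627937 to 4629516, plus strand) was the remaining member that fell. It had 11.6 and 10.6 FPKM after CysNO and 28.8 and 25.9 FPKM in control, a log2 difference of -1.23 ± 0.25 (SE; limma, adjusted p = 0.0441). Groups were tight and apart, while the call was lost with median centring (limma, adjusted p = 0.0546), without control 1 (0.144) and without control 2 (0.0693).

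**Figure D4:**
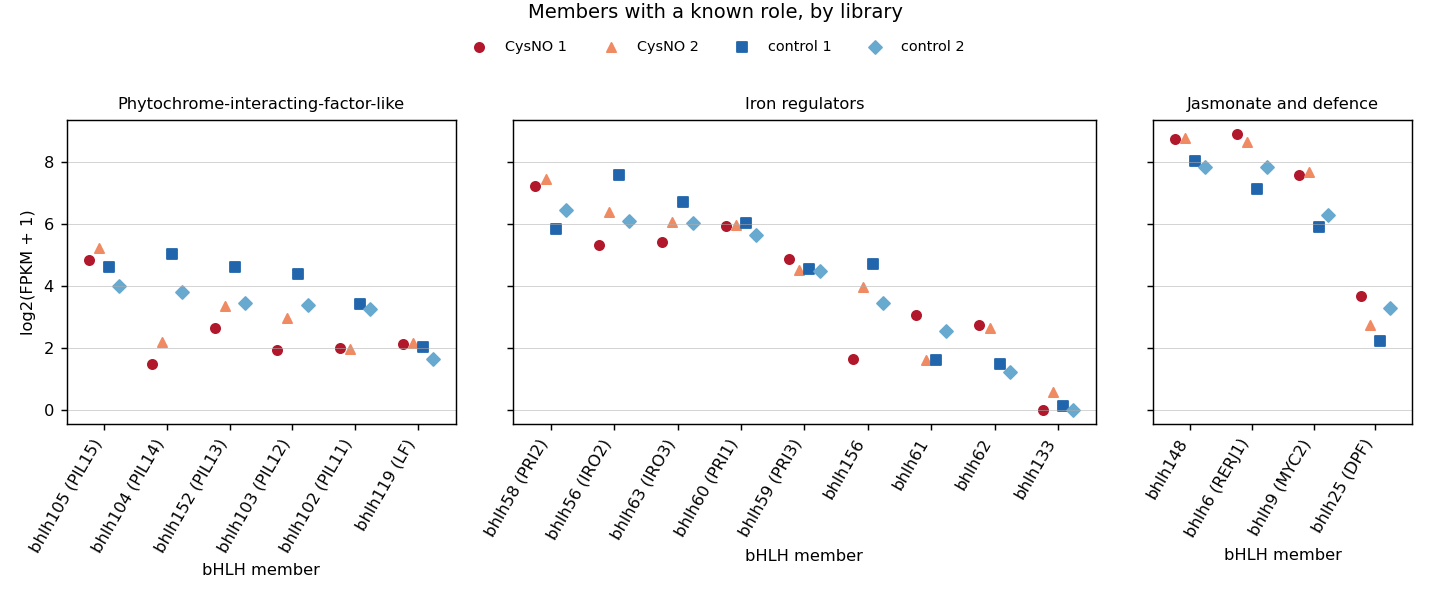
Level as log2(FPKM + 1) by library for the 6 PIL members, the 9 iron regulators and the 4 jasmonate and defence members, each panel ordered by mean level. bhlh9, bhlh6 and bhlh148 are higher in both CysNO libraries, bhlh102 and bhlh104 lower in both, and the groups overlap for bhlh56, bhlh63 and bhlh156, whose highest value is in control 1.

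Of the 9 iron regulators 8 were tested, and 0 passed in either direction by limma, with 2 at an unadjusted p under 0.05. Their median log2 difference was 0.14. bhlh56 encodes IRO2, the activator of iron chelator synthesis and uptake genes, and bhlh156 encodes the partner that brings it into the nucleus. bhlh56 had 38.9 and 82.9 FPKM after CysNO and 192 and 68.1 FPKM in control, so the groups overlapped (log2 difference -0.997 ± 0.54, SE; limma, adjusted p = 0.405). bhlh156 had 2.11 and 14.6 FPKM after CysNO and 25.3 and 9.87 FPKM in control (log2 difference -1.28 ± 0.74, SE; limma, adjusted p = 0.444). bhlh63 (IRO3, a repressor of the iron deficiency response) had 41.7 and 65.3 FPKM after CysNO and 104 and 64.2 FPKM in control (limma, adjusted p = 0.41). All 3 had their highest value in control 1 and their lowest in CysNO 1. bhlh56 overlaps LOC_Os01g72360 on the other strand, so its level could hold reads of that locus. The RefSeq gene table lists bhlh63 as both IRO3 and OsIRO2. It has no match for bhlh56 on chromosome 1, so the name IRO2 for bhlh56 rests on general knowledge.

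Loci of iron chelator synthesis and iron transport, among them known targets of IRO2, and the iron sensors were described in the same way. Of 11 such loci 0 passed by limma, with 2 at an unadjusted p under 0.05. Of these loci 10 were highest in control 1 and 8 lowest in CysNO 1, and they summed to 498 and 1587 FPKM after CysNO and to 2098 and 976 FPKM in control. NAS2, for the nicotianamine synthase that starts chelator synthesis, had 227 and 754 FPKM after CysNO and 993 and 479 FPKM in control. NAS3, another nicotianamine synthase gene, ran the other way without passing, with 13.4 and 12.2 FPKM after CysNO and 7.00 and 2.94 FPKM in control (log2 difference 1.29 ± 0.38, SE; limma, adjusted p = 0.121). The root marker sum given above was highest in CysNO 2 and lowest in control 1, and the leaf marker sum was highest in control 1 and lowest in CysNO 1. Their part in these values was not tested.

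Upstream of IRO2 stand the related factors PRI1, PRI2 and PRI3. bhlh58 (PRI2) had 148 and 174 FPKM after CysNO and 56.1 and 86.5 FPKM in control, without overlap, and missed the threshold (log2 difference 1.19 ± 0.31, SE; limma, adjusted p = 0.0852). bhlh60 (PRI1) had 59.9 and 61.2 FPKM after CysNO and 63.9 and 49.3 FPKM in control (log2 difference 0.11 ± 0.27, SE; limma, adjusted p = 0.904). bhlh59 (PRI3) had 28.6 and 21.7 FPKM after CysNO and 22.5 and 21.4 FPKM in control (log2 difference 0.18 ± 0.27, SE; limma, adjusted p = 0.826). bhlh62, whose product interacts with JAZ9, had 5.76 and 5.19 FPKM after CysNO and 1.77 and 1.36 FPKM in control, a log2 difference of 1.34 ± 0.30 (SE; limma, adjusted p = 0.055). bhlh61, whose product binds PRI1, was split within both groups, with 7.45 and 2.06 FPKM after CysNO and 2.07 and 4.88 FPKM in control (limma, adjusted p = 0.879). bhlh133, known from iron distribution between root and shoot, had 0 and 0.501 FPKM after CysNO and 0.0861 and 0 FPKM in control and was not tested. The loci of bhlh59 and bhlh61 each overlap another locus on the opposite strand.

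Cold signalling and the stomatal lineage use related bHLH proteins, and 0 of their 6 members passed by limma, with 0 at an unadjusted p under 0.05. bhlh2 (ICE1) had 49.6 and 31.0 FPKM after CysNO and 55.5 and 61.5 FPKM in control (log2 difference -0.56 ± 0.30, SE; limma, adjusted p = 0.402). bhlh1 (ICE2) had 23.3 and 15.2 FPKM after CysNO and 18.1 and 15.9 FPKM in control (limma, adjusted p = 0.879). Of 4 tested DREB1 genes, cold-response genes that ICE proteins activate, 3 fell, where 0.956% of all tested loci fell. DREB1C (LOC_Os06g03670) had 2.98 and 3.57 FPKM after CysNO and 12.9 and 20.3 FPKM in control (log2 difference -2.01 ± 0.32, SE; limma, adjusted p = 0.0178). The stomatal genes were low. bhlh55 (MUTE, which ends the divisions of the lineage) had 2.36 and 6.45 FPKM after CysNO and 4.87 and 7.13 FPKM in control, and bhlh51 (FAMA, which acts at guard cell formation) had 2.34 and 3.45 FPKM after CysNO and 3.18 and 1.14 FPKM in control. bhlh53 and bhlh54 (SPCH2 and SPCH1, which start the lineage) lay between 0 and 4.62 FPKM over both groups. Their groups overlapped, with limma adjusted p from 0.677 to 0.871 over these 4 genes.

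Members known from growth, nutrition and immunity did not pass. bhlh96 (PTF1, a factor of phosphate starvation tolerance) had 31.7 and 31.3 FPKM after CysNO and 21.7 and 21.1 FPKM in control, with tight groups that were apart (log2 difference 0.54 ± 0.25, SE; limma, adjusted p = 0.314). bhlh79, which affects leaf angle and grain shape, had 18.7 and 16.3 FPKM after CysNO and 7.93 and 8.62 FPKM in control (log2 difference 0.99 ± 0.26, SE; limma, adjusted p = 0.0892), and its locus overlaps LOC_Os02g47650 on the other strand. bhlh120, known from root thickness, had 1.28 and 3.37 FPKM after CysNO and 8.69 and 3.45 FPKM in control (limma, adjusted p = 0.306). bhlh3 (RAI1, of rice immunity) had 6.70 and 9.02 FPKM after CysNO and 6.94 and 9.22 FPKM in control, a log2 difference of -0.04 ± 0.30 (SE; limma, adjusted p = 0.976). bhlh81 and bhlh80 (BC1 and its relative BCL1, of brassinosteroid-linked leaf bending) had log2 differences of -0.18 and 0.19, with overlapping groups (limma, adjusted p = 0.845 and 0.852). bhlh3, bhlh79, bhlh80 and bhlh81 are described for their known roles and were chosen after their values were seen. So were bhlh26, bhlh27, bhlh106, bhlh113, bhlh145, bhlh146, bhlh147, bhlh150, bhlh151, bhlh153 and the bhlh68 of LOC_Os01g57580.

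Other members missed the threshold with large differences. Among the largest positive log2 differences that did not pass, bhlh42 had 10.97 and 6.66 FPKM after CysNO and 2.99 and 0.819 FPKM in control (1.83 ± 0.44, SE; limma, adjusted p = 0.0704). bhlh134 had 2.67 and 2.18 FPKM after CysNO and 0.289 and 0.267 FPKM in control (1.42 ± 0.31, SE; limma, adjusted p = 0.0523). On the negative side, bhlh127 was listed at 0 in both CysNO libraries and at 1.19 and 1.55 FPKM in control (limma, adjusted p = 0.0813). bhlh134 met the filter on low values through its CysNO libraries alone and bhlh127 through its controls alone. The filter itself selects such members for a difference. bhlh92 had 12.1 and 16.4 FPKM after CysNO and 39.4 and 23.5 FPKM in control (log2 difference -1.06 ± 0.33, SE; limma, adjusted p = 0.141).

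Listed members of the tapetum, axillary meristem, root hair, anthocyanin and cell elongation roles were at or near 0. The tapetum factors bhlh142 (TIP2) and bhlh141 (EAT1), which act in the anther, had 0.0899 to 0.286 FPKM and 0 to 0.0315 FPKM after CysNO, against 0.213 to 0.51 FPKM and 0 to 0.0336 FPKM in control. bhlh123 (LAX1, of axillary meristems) had 0.0892 and 0.229 FPKM after CysNO and 0.128 and 0.119 FPKM in control. bhlh115 (RHL1, of root hairs) and bhlh16 (given as the anthocyanin activator B2) were listed at 0 in all 4 libraries, and bhlh154 (ILI1, an atypical member of cell elongation) reached 0.68 FPKM in control 1 and was at 0 in the other 3. None of these 6 was tested, as they did not reach 1 FPKM in 2 libraries. bhlh153, named ILI3 in the RefSeq gene table though with a different span, is on no role list and was tested. It had 0 and 1.02 FPKM after CysNO and 1.83 and 0 FPKM in control (limma, adjusted p = 0.895). Genes of the same roles without a bhlh symbol were in part higher. UDT1, another tapetum gene, had 0.658 and 1.70 FPKM after CysNO and 3.08 and 2.36 FPKM in control (limma, adjusted p = 0.296). LOC_Os02g51320, usually given as the cell elongation gene PGL2, had 42.5 and 26.7 FPKM after CysNO and 22.4 and 33.3 FPKM in control (limma, adjusted p = 0.754).

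Some neighbouring members differed widely in level, while others were alike, such as bhlh146 and bhlh147 on chromosome 2, both at 0 in all 4 libraries. bhlh144 and bhlh145 stand next to each other on chromosome 4, and while bhlh144 had 47.2 to 86.2 FPKM over the 4 libraries, bhlh145 was at 0 in 3 of them and at 0.155 FPKM in control 2. Of the run of bhlh27, bhlh26 and bhlh25 on chromosome 1, bhlh25 alone was tested, and the other 2 reached at most 0.188 FPKM. Members lie on all 12 chromosomes, from 5 on chromosome 10 to 26 on chromosome 3. bhlh151 and bhlh150 sit in the duplicated ends of chromosomes 11 and 12, as do bhlh160 and bhlh161, and no source used here says how reads were divided within such similar pairs. bhlh151 had 9.24 and 5.65 FPKM after CysNO and 9.77 and 7.17 FPKM in control, and bhlh150 had 9.44 and 6.88 FPKM after CysNO and 8.69 and 5.02 FPKM in control. The locus of bhlh150 also overlaps LOC_Os12g06335 on the same strand.

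Spread between replicates was wide for part of the family. Between the CysNO libraries 11 of 121 tested members, or 9.09%, were more than 2-fold apart on the scale of FPKM + 1, where 6.94% of all tested loci were. Between the controls 21 members, or 17.4%, were that far apart, against 8.85% of all tested loci. Over all tested loci 1084 of the 1869 that far apart were higher in control 1, and among the members 16 of the 21 were. bhlh104, bhlh56, bhlh156, bhlh113 and bhlh120 were among those 16. bhlh113 had 25.8 and 34.2 FPKM after CysNO and 111 and 34.6 FPKM in control (log2 difference -1.04 ± 0.51, SE; limma, adjusted p = 0.345). For it the groups did not overlap, and control 2 was close to both CysNO libraries.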

How the data were processed

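Leaf poly(A) RNA was measured in 4 libraries (2 CysNO, 2 control), while the labels' protocols speak of triplicate leaf samples. Each deposited file lists FPKM by locus, per the file headers, with positions and, for some loci, symbols. Bowtie 0.12.2 and mm8, which is a mouse build and cannot hold rice loci, are what the submitters' processing notes name. For the counting program, annotation, coordinate build, strand use and filters the sources used here give nothing. FPKM hold no read counts, so neither count tests nor counting intervals could be had. Relative depth was read from the peak of the log2 ratios to control 1 (density with a kernel bandwidth of 0.03) over 594 loci between 0.01 and 0.3 FPKM in every library. It takes loci at the peak to hold equal fragment counts in the libraries compared, with no other scaling applied. Neither could be checked.

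The limma package (3.58.1, under R 4.3.3) was fitted with a variance trend to log2(FPKM + 1) of the 21123 loci that had 1 FPKM or more in 2 or more libraries, as CysNO minus control and two-sided. P-values were adjusted over all of them by Benjamini-Hochberg, and 0.05 was the threshold. No test was run over the family or a role list, which are described by counts and medians beside those of all tested loci.

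Named members are all that passed, the 12 most abundant, the 4 largest differences in each direction that did not pass, and all on the role lists. A few more were chosen after their values were seen, and the report says which. The members and lists were chosen with earlier results of these data known. Symbols were compared with RefSeq names on the same chromosome, with spans within 10% counted as matching (6 of 11 members, 10 of 13 JAZ loci). The RefSeq assembly was used for names and spans only. Alternatives were 2 scalings, a pseudocount of 0.1, no filter, a filter of 5 FPKM, loci at 0 left out, each library left out, a block for the replicate number, an adjusted p under 0.01 and a constant variance prior. A crossed pairing was added after seeing the data.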

Additional observations from a re-analysis of the deposited data

How the results depend on the processing

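With all loci, limma called 691 higher and 202 lower, and among bHLH members 6 and 3. The counts were 393 and 87 (members 3 and 1) with quantile normalization, 381 and 68 (members 2 and 0) with median centring, 172 and 14 (members 2 and 0) at an adjusted p under 0.01, and 2 and 0 (members 0 and 0) with no filter, where 26 members had an unadjusted p under 0.05. Leaving out 1 library gave 0 to 816 higher and 0 to 484 lower loci, with 0 to 7 higher and 0 to 3 lower members, and 21 to 34 members at an unadjusted p under 0.05. The other alternatives kept every count within 1.5 times. The family's median log2 difference ran from -0.08 to 0.06. Its moves stayed within the spread between replicates, which leaving out 1 library could hardly exceed by construction.

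With the replicate number as a block limma called 53 higher and 2 lower loci and 0 and 0 members (22 at an unadjusted p under 0.05). The pairing is not in the labels, and the deviations of same-numbered libraries correlated at -0.19. A crossed pairing, added after seeing the data, gave 1625 and 1206 loci and 15 and 12 members, and it was not run for single members. In that fit limma took the variance of each locus wholly from the trend, so its p-values can be too small.

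Of the named members, those that passed kept their direction under every alternative that gave a value. For the fits with a library left out this was fixed in advance, since their groups do not overlap. Members bhlh1, bhlh25, bhlh51, bhlh53, bhlh54, bhlh55, bhlh59, bhlh60 and bhlh61, which did not pass, changed sign. With quantile normalization bhlh60 was at -0.0273. With a library left out, the lowest and highest log2 differences were -0.0762 and 0.29 for bhlh60, -0.0145 and 0.37 for bhlh59, -0.15 and 0.44 for bhlh1, -0.0712 and 0.998 for bhlh25, -1.04 and 0.11 for bhlh55, -0.48 and 0.99 for bhlh61, -0.12 and 0.85 for bhlh51, -0.84 and 1.65 for bhlh53, and -0.95 and 0.28 for bhlh54. The causes were not tested. Depth is unknown, which limits members near 1 FPKM most.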
